A study of Homo sapiens with 6 samples.

Results

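The transcripts of 10 amino acid transporter genes were followed in human motor neurons under simulated microgravity: SLC1A4, SLC1A5, SLC3A2, SLC7A1, SLC7A3, SLC7A5, SLC7A8, SLC7A11, SLC38A1 and SLC38A2. They were taken by name and are 10 of the 57820 genes in the deposited count table, and each matched 1 Ensembl gene. The cells came from H9, an established line of wild-type human embryonic stem cells, and had passed from motor neuron progenitors to motor neurons in medium with 0.01 μM retinoic acid and 0.1 μM SAG, an agonist of Hedgehog signalling. In the SMG group (simulated microgravity) they were on a 2D clinostat, which keeps turning a culture relative to gravity. The NG group stayed at normal gravity. Each group had 3 libraries, numbered 1 to 3. Both groups derive from 1 cell line, and the duration of rotation was not given in the sources used here. Nor do the labels say whether the 3 libraries of a group are separate cultures. The p-values therefore measure a spread between libraries that may be technical.

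Amino acids are charged or polar and cross the plasma membrane through carriers of several solute carrier (SLC) families. SLC38A1 and SLC38A2 are sodium-coupled carriers that bring glutamine, alanine and other small neutral amino acids into the cell. SLC1A4 and SLC1A5 exchange neutral amino acids such as serine, alanine and, for SLC1A5, glutamine. SLC7A1 and SLC7A3 carry the cationic amino acids arginine and lysine. SLC3A2 (CD98) is a heavy chain that transports nothing itself and takes light chains to the cell surface. Its light chains include SLC7A5 and SLC7A8, which exchange leucine and other large neutral amino acids, and SLC7A11, which imports cystine in exchange for glutamate and so feeds glutathione synthesis. Several of these genes are known targets of ATF4, the transcription factor made when amino acids run short, which binds a composite C/EBP-ATF element.

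That element has the core TGATGNAA, where N is any base. It was searched on both strands in promoter windows from RefSeq (build GRCh38.p14, while the deposited counts were made on hg19), each running from 250 bases before to 50 after an annotated transcript start. The table held 17 windows for 8 of the transporters, and SLC7A3 and SLC7A11 had none. The core stood in a window of 5 of the 8 genes, against 4.46% of the 27305 genes in the table. By windows it was in 5 of 17, against 3.62% of all 35116. These 5 sites are shown with the known element of ASNS, the asparagine synthetase gene, because they match the core that ATF4 is known to read. Each is written 5′ to 3′ on the gene's own strand with the match in capitals. A match printed as TTGCATCA or TTACATCA is the core on the other strand.
ASNS: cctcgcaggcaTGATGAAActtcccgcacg
SLC1A4: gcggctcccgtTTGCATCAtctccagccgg
SLC1A5: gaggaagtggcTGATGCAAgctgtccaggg
SLC3A2: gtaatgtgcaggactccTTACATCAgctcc
SLC7A1: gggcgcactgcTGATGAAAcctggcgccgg
SLC38A1: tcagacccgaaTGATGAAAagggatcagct

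The windows are chr7:97872359-97872658 (minus strand) for ASNS, chr2:64989149-64989448 (plus) for SLC1A4, chr19:46784765-46785064 (minus) for SLC1A5, chr11:62881449-62881748 (plus) for SLC3A2, chr13:29595639-29595938 (minus) for SLC7A1 and chr12:46266467-46266766 (minus) for SLC38A1. The match began 68 bases before the annotated start in ASNS, 7 before it in SLC1A4, 97 before it in SLC1A5 and 4 before it in SLC38A1. In SLC7A1 it began at base 8 of the transcript and in SLC3A2 at base 38. SLC1A4 and SLC1A5 hold the same 8 letters, TGATGCAA, in opposite orientation. These paralogs were called in opposite directions, and whether the core plays a part in that was not tested. Their windows, up to 30 bases after the start, are given in full.
SLC1A4: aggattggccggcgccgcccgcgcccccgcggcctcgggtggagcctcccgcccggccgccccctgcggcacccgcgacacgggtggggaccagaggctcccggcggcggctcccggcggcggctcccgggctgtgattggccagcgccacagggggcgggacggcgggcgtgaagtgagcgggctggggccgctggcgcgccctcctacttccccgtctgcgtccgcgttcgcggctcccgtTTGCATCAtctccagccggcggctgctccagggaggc
SLC1A5: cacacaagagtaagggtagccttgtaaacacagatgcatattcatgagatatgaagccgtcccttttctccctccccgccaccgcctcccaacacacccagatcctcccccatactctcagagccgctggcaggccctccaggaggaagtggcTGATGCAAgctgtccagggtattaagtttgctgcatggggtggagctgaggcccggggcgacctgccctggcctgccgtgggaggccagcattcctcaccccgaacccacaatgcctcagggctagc

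A match describes letters and not a bound site, and the gene counts do not tell which start was used. SLC1A4 has 2 windows, SLC1A5 and SLC3A2 have 3 each and SLC38A1 has 2, with the core in 1 of them in each case. The E-box CACGTG, which MYC and related factors read, was in a window of SLC1A5, SLC7A5 and SLC7A8 (3 of the 8 genes, against 8.77% of all genes in the table). By windows it was in 3 of 17, against 7.26% of all windows. It is shown for SLC7A5, the main light chain of SLC3A2 here, whose single window held no TGATGNAA.
SLC7A5: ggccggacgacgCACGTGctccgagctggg
This site lies in chr16:87869458-87869757 (minus strand), beginning 130 bases before the start. The hypoxia element core ACGTG, which is contained in CACGTG, was in a window of 5 of the 8 genes, against 24.9% of all genes. By windows it was in 6 of 17, against 21.4% of all windows.

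Levels are CPM, gene counts divided by library totals that were adjusted by TMM scaling. The totals ranged from 16329907 to 22685870. The fewest counts of a transporter in a library were 70 (SLC7A8) and the most 11955 (SLC38A1). Libraries of 1 group differed by more than counting noise (chi-square over its degrees of freedom 1.57 to 3.26), so each was kept as its own sample. Motor neuron markers were present, with 5 of 8 higher and 0 lower in SMG (17.3% of all genes tested were higher), and a summed level of 583 to 615 CPM in NG and 691 to 718 CPM in SMG. MNX1 was at 52.2 and 61.6 CPM, ISL1 at 102 and 120 CPM, SLC18A3 at 51.8 and 82.3 CPM and CHAT at 30.5 and 32.4 CPM in NG and SMG. MNX1 rose by 0.24 on the log2 scale, but did not pass once each library's dependence on transcript length and GC content was removed (0.08, edgeR adjusted p = 0.148). Progenitor markers were also abundant, at 3505 to 3760 CPM in NG and 3505 to 3633 CPM in SMG, with 3 of 7 lower and 0 higher. Of other cell types, the astrocyte markers GFAP (0.196 and 0.151 CPM) and AQP4 (0.307 and 0.196 CPM) were near 0. The 4 microglial markers summed to 0.304 to 0.799 CPM in NG and 0.613 to 0.831 CPM in SMG. Of these, AIF1 alone had no count in any library. Interneuron markers summed to 44.5 to 50.9 CPM in NG and 42.8 to 46.5 CPM in SMG, with 1 higher and 1 lower of 8 tested. The astrocyte markers, of which GJA1 fell and 2 of 6 were tested, summed to 257 to 265 CPM in NG and 231 to 244 CPM in SMG. Most of these sums came from SLC1A2 (223 and 214 CPM). The part of these marker differences in the transporter results was not tested. In bulk RNA, fewer cells of a type and less RNA per cell cannot be told apart.

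The question was which transporter transcripts differ between SMG and NG. All 10 genes passed the filter on low counts and were tested. Of them 1 rose (SLC1A4) and 2 fell (SLC1A5 and the heavy chain SLC3A2), with fold changes between 0.877 and 1.09. The other 7 did not pass edgeR's quasi-likelihood test at an adjusted p of 0.05. The share called was 30% of the transporters, against 35.8% of all 17803 genes tested (17.3% higher and 18.5% lower) and 46.3% of the 11687 genes with a mean CPM in the transporters' range. A share this near the background, over 10 genes, is no result about the transporters as a group. Their log2 fold changes ran from -0.19 to 0.14 with a median of -0.03, against a median of -0.00018 over all genes tested. In size, without regard to direction, they lay between the 2.75th and the 56.8th percentile of all genes tested. The groups did not overlap in 4 of the 10 genes, against 46.3% of all genes tested.

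**Figure D1:**
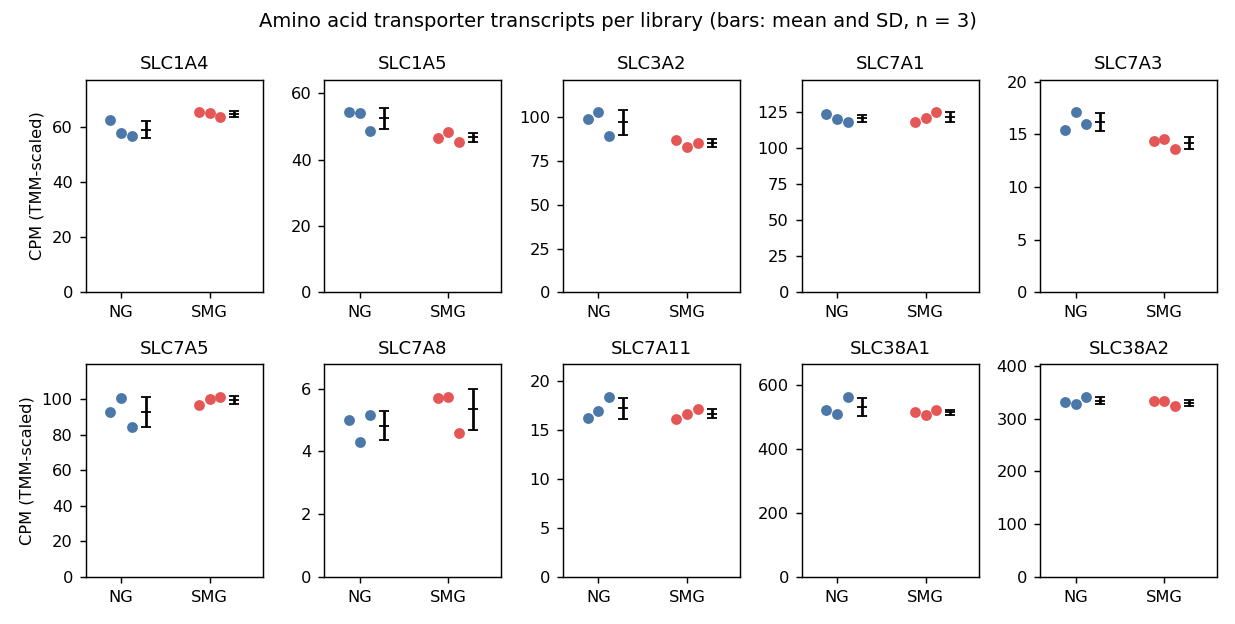
Each panel plots 1 transporter gene: the vertical axis is its level in CPM, starting at 0, points are the 3 NG (blue) and 3 SMG (red) libraries, and bars are the group mean and SD. The groups stand apart in SLC1A4, SLC1A5, SLC3A2 and SLC7A3 and overlap in the other 6 genes.

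**Figure D2:**
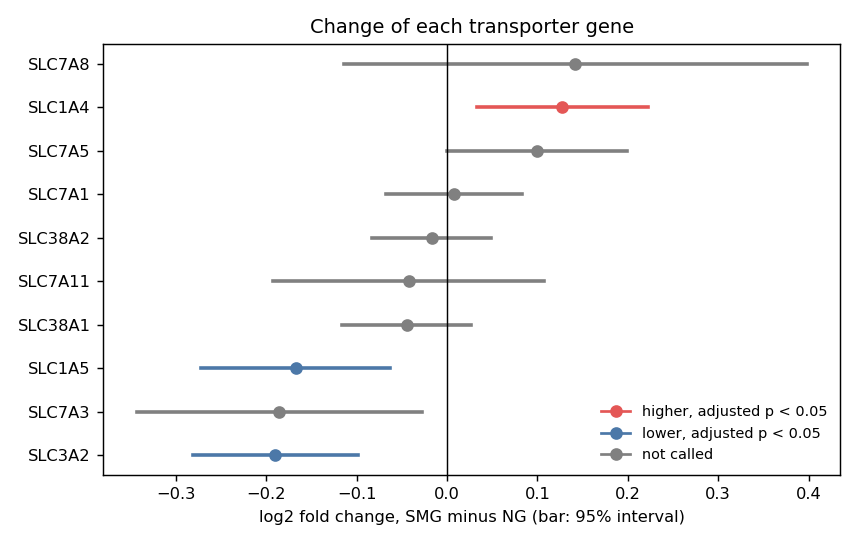
The horizontal axis is the log2 fold change, SMG minus NG, from edgeR for each transporter, with its 95% interval as a bar. SLC3A2 and SLC1A5 lie below 0 and SLC1A4 above it with adjusted p under the threshold, and the interval of SLC7A8, the gene with the fewest counts, is the widest.

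Per kilobase of the longest annotated transcript, the scale on which genes can be compared, the sodium-coupled pair led. SLC38A2 averaged 67.9 CPM per kb over the 6 libraries and SLC38A1 65.0, and their ranges overlapped. SLC3A2 came next at 41.0, followed by SLC7A5 at 21.2, SLC1A5 at 17.2 and SLC7A1 at 16.5. Of these, SLC7A5 overlapped with SLC1A5 and SLC1A5 with SLC7A1, so their order is not resolved. Below them, without overlap between neighbours, stood SLC1A4 at 10.7, SLC7A3 at 6.78, SLC7A11 at 1.75 and SLC7A8 at 1.21 CPM per kb. The order depends on the transcript length assumed, which the spread between libraries does not cover. Before division by length SLC7A11 (9645 bases) averaged 16.9 CPM and SLC7A3 (2236 bases) 15.2 CPM, the reverse order. SLC38A1 and SLC38A2 together made up 53.0% ± 2.25 (SD, n = 3) of the 10 genes' summed level per kb in NG and 53.7% ± 0.133 in SMG.

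Neither of the sodium-coupled glutamine carriers passed the test. SLC38A1 (ENSG00000111371) was at 522, 511 and 564 CPM in NG and at 518, 508 and 523 CPM in SMG. NG replicate 3 was the highest of the 6 and the other libraries lay close together. The log2 fold change was -0.04 ± 0.03 (SE), with a 95% interval from -0.12 to 0.03 (edgeR adjusted p = 0.341). SLC38A2 (ENSG00000134294), which is known to be induced by amino acid shortage, was at 331, 329 and 341 CPM in NG and at 333, 333 and 323 CPM in SMG. Its groups overlapped, and the log2 fold change was -0.02 ± 0.03, with an interval from -0.08 to 0.05 (edgeR adjusted p = 0.721). In fold terms that interval runs from 0.944 to 1.03. After removal of the length and GC trend the value was 0.06 on the log2 scale (adjusted p = 0.0841), above that interval, and it did not pass either. The log2 ratio of SLC38A1 to SLC38A2 counts within a library was 0.67 ± 0.05 in NG and 0.65 ± 0.04 in SMG (SD, n = 3; exact permutation test, two-sided p = 0.5).

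Of the neutral exchangers, SLC1A4 rose and SLC1A5 fell. SLC1A4 (ENSG00000115902) was at 62.6, 58.0 and 57.0 CPM in NG and at 65.5, 65.3 and 63.7 CPM in SMG. All SMG libraries lay above all NG libraries, the nearest being NG replicate 1. It rose by 9.26% (log2 fold change 0.13 ± 0.05, edgeR adjusted p = 0.0305), from 59.2 ± 2.97 to 64.8 ± 1.02 CPM. This call is marginal. DESeq2 gave an adjusted p of 0.069, and with 1 library left out it was lost in 5 of 6 cases, at 0.0915 without NG replicate 2, 0.0746 without NG replicate 3, 0.0866 without SMG replicate 1, 0.0936 without SMG replicate 2 and 0.0553 without SMG replicate 3.

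SLC1A5 (ENSG00000105281) was at 54.4, 54.2 and 48.8 CPM in NG and at 46.6, 48.3 and 45.5 CPM in SMG. The groups did not overlap, but NG replicate 3 lay just above SMG replicate 2. The level fell from 52.5 ± 3.17 to 46.8 ± 1.42 CPM (log2 fold change -0.17 ± 0.05, edgeR adjusted p = 0.0111). Without NG replicate 1 the adjusted p was 0.0883 and without SMG replicate 3 it was 0.0676. Exons of SLC1A5 overlap annotation on the opposite strand, and its value is uncertain because the strand setting of the counting was not given in the sources used here.

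Within a library, the log2 ratio of SLC1A4 to SLC1A5 counts came to 0.20, 0.10 and 0.22 for NG and 0.49, 0.44 and 0.49 for SMG. All 3 SMG libraries were above all 3 NG libraries, by 0.30 on average. This ratio needs no scaling between libraries. The exact permutation test (two-sided) gave p = 0.1, the smallest that 3 against 3 libraries allow, and 0.2 after Benjamini-Hochberg adjustment over the 6 ratios compared. When each library's dependence on transcript length and GC content was removed, the difference was 0.40.

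The heavy chain SLC3A2 (ENSG00000168003) fell, with the smallest adjusted p of the 10 genes. It was at 99.1, 103 and 89.3 CPM in NG and at 87.3, 83.0 and 85.4 CPM in SMG. The groups did not overlap, with NG replicate 3 close above SMG replicate 1. The mean went from 97.2 ± 7.06 to 85.2 ± 2.18 CPM, a log2 fold change of -0.19 ± 0.04 (95% interval -0.28 to -0.10, edgeR adjusted p = 0.00142). It was lower and past the threshold in each of the 17 other settings tried, with adjusted p from 3.61e-06 to 0.017.

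None of its 3 light chains among the 10 genes passed the test. SLC7A5 (ENSG00000103257), the leucine exchanger, was at 92.8, 101 and 84.3 CPM in NG and at 96.8, 99.8 and 101 CPM in SMG. NG spread widely and its replicate 2 lay among the SMG libraries. The log2 fold change was 0.10 ± 0.05 (95% interval 0.00039 to 0.20, edgeR adjusted p = 0.112), and after removal of the length and GC trend it was -0.06 (adjusted p = 0.202), so no direction can be given. Without NG replicate 2 it was 0.16 (adjusted p = 0.00656), and with no filter on low counts 0.11 (adjusted p = 0.0465).

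SLC7A8 (ENSG00000092068), the related exchanger, was near the bottom of the range, with 70 to 128 counts per library. Its levels were 4.99, 4.30 and 5.17 CPM in NG and 5.70, 5.74 and 4.59 CPM in SMG, and the groups overlapped. The log2 fold change was 0.14 ± 0.13, with an interval from -0.11 to 0.40 (edgeR adjusted p = 0.407), which reaches up to a 1.32-fold rise. The log2 ratio of SLC7A5 to SLC7A8 counts was 4.26 ± 0.264 in NG and 4.22 ± 0.208 in SMG (SD, n = 3; exact permutation p = 0.8).

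SLC7A11 (ENSG00000151012), the cystine importer, was at 16.2, 17.0 and 18.4 CPM in NG and at 16.2, 16.7 and 17.1 CPM in SMG. The SMG libraries lay inside or at the edge of the NG range. An antisense gene overlaps its exons but had 28 counts in all 6 libraries, against 2029 for SLC7A11. Its log2 fold change was -0.04 ± 0.07 (interval -0.19 to 0.11, edgeR adjusted p = 0.696). The ratio of SLC7A11 to SLC3A2 overlapped between groups (log2 difference 0.14, exact permutation p = 0.4). Genes of glutathione synthesis and use had a median log2 fold change of -0.05. Of 11 tested, 1 was higher and 0 lower (9.09%, against 35.8% of all genes). The 1 was GGT7, a relative of the gamma-glutamyl transferases, from 72.5 ± 1.63 to 79.4 ± 4.41 CPM (0.13 ± 0.04, edgeR adjusted p = 0.0192). It did not pass after removal of the trend (0.03, adjusted p = 0.696), without NG replicate 1 (0.0994) or without SMG replicate 3 (0.198). GCLC, the catalytic subunit of the first step of glutathione synthesis, was at -0.05, and GPX4, which reduces lipid peroxides, at 0.06, and neither passed.

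**Figure D3:**
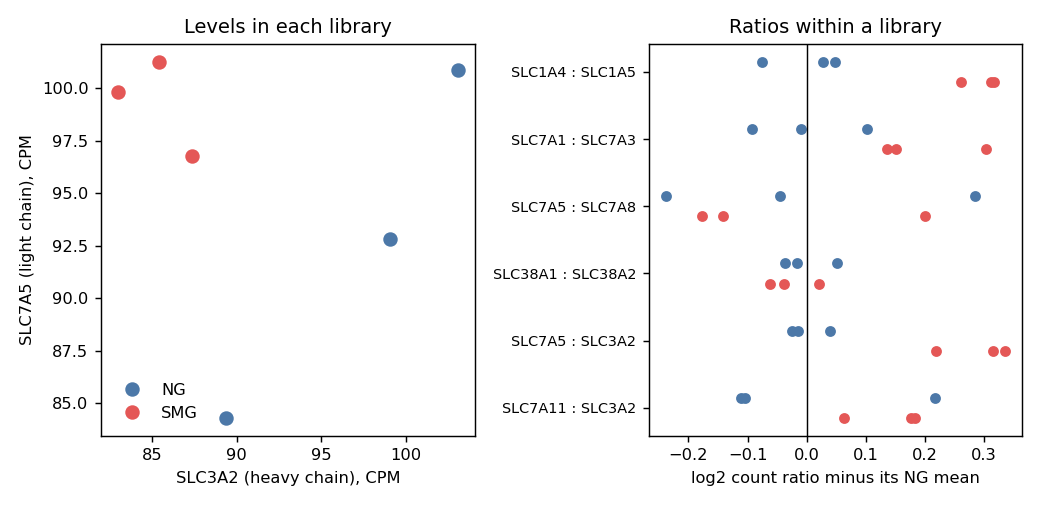
On the left, SLC7A5 (vertical axis) is plotted against SLC3A2 (horizontal axis), both in CPM, for the 3 NG (blue) and 3 SMG (red) libraries: the NG libraries run from 84.3 and 89.3 CPM up to 101 and 103 CPM, and the SMG libraries sit at 83.0 to 87.3 CPM of SLC3A2 with 96.8 to 101 CPM of SLC7A5. On the right, each log2 count ratio within a library is shown minus its NG mean, and the groups stand apart in SLC1A4 to SLC1A5, SLC7A1 to SLC7A3 and SLC7A5 to SLC3A2.

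The balance of SLC7A5 to SLC3A2 was higher in every SMG library than in any NG library. The log2 count ratio came to -0.09, -0.03 and -0.08 for NG and 0.15, 0.27 and 0.25 for SMG. Within NG the 2 transcripts were high together in replicate 2 and low together in replicate 3, while the ratio averaged -0.07 ± 0.034 (SD, n = 3). The groups differed by 0.29 (exact permutation p = 0.1, the smallest possible, and 0.2 adjusted over the 6 ratios), and by 0.18 after removal of the length and GC trend. Against the summed level per kb of its light chain genes with counts here (SLC7A5, SLC7A6, SLC7A7, SLC7A8, SLC7A10 and SLC7A11), the heavy chain stood at a ratio of 1.47, 1.44 and 1.39 in NG and 1.2, 1.13 and 1.15 in SMG. All SMG libraries were lower. Of that light chain sum SLC7A5 made up 67.0% ± 2.43 in NG and 66.3% ± 0.829 in SMG, SLC7A6 18.7% ± 1.52 and 19.8% ± 0.585, SLC7A11 5.88% ± 0.628 and 5.23% ± 0.0872, and SLC7A8 3.78% ± 0.550 and 3.85% ± 0.506 (SD, n = 3). The share of SLC7A11 was lower in every SMG library, and the other shares overlapped between groups. The size of each share depends on the transcript lengths assumed.

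Of the cationic carriers, SLC7A1 (ENSG00000139514) had the smallest fold change of the 10 genes. Its levels were 124, 120 and 119 CPM in NG and 118, 121 and 125 CPM in SMG, fully overlapping. The log2 fold change was 0.01 ± 0.04 (interval -0.07 to 0.08, edgeR adjusted p = 0.894). SLC7A3 (ENSG00000165349), at 15.4, 17.1 and 15.9 CPM in NG and 14.4, 14.6 and 13.6 CPM in SMG, had all SMG libraries below all NG libraries. The log2 fold change was -0.19 ± 0.08, but on 262 to 327 counts per library it did not pass (edgeR adjusted p = 0.061). The log2 ratio of SLC7A1 to SLC7A3 counts was 2.90 ± 0.0972 in NG and 3.10 ± 0.0923 in SMG, without overlap (exact permutation p = 0.1, 0.2 adjusted). After removal of the length and GC trend the difference of 0.20 was 0.10.

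Some other amino acid carriers of the plasma membrane passed the test, in both directions. Of 30 matched genes 20 were tested, with 4 higher and 4 lower (40%, against 35.8% of all genes). The median log2 fold change was -0.04. The 40% called was near the background and is no result about the list. The glycine transporter SLC6A9 rose from 11.5 ± 0.355 to 14.9 ± 0.832 CPM (0.37 ± 0.08, edgeR adjusted p = 6.50e-04). SLC43A2, a carrier of large neutral amino acids, rose from 30.1 ± 1.81 to 35.3 ± 1.29 CPM (0.23 ± 0.06), or 0.07 without the length and GC trend (adjusted p = 0.320). SLC7A6, another light chain of SLC3A2, rose from 35.8 ± 1.02 to 41.2 ± 1.31 CPM (0.21 ± 0.05, edgeR adjusted p = 0.00283).

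The taurine transporter SLC6A6 fell from 68.5 ± 1.74 to 59.7 ± 0.407 CPM (-0.20 ± 0.04, edgeR adjusted p = 7.15e-04). The glutamate transporters SLC1A1 and SLC1A3 fell by 0.22 and 0.16 on the log2 scale, and SLC6A15, a carrier of branched-chain amino acids and proline, fell by 0.15. With DESeq2 these 3 did not pass, with adjusted p of 0.0677, 0.0533 and 0.0567. With 1 library left out SLC1A1 was lost without NG replicate 1 (0.11), NG replicate 3 (0.0569) or SMG replicate 2 (0.156). SLC1A3 was lost without NG replicate 1 (0.0555) or SMG replicate 3 (0.101), and SLC6A15 without NG replicate 1 (0.0969), SMG replicate 2 (0.0527) or SMG replicate 3 (0.085). After removal of the length and GC trend SLC6A15 was at -0.07 (adjusted p = 0.25) and SLC1A1 at -0.17 (0.0538), and neither passed. SLC6A9, SLC7A6 and SLC6A6 each overlap a gene on the opposite strand, so their values are uncertain. The remaining gene called higher, SLC7A9, was at only 0.551 and 0.990 CPM, under the level set for naming, and was picked out with its values in view.

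Carriers of organelles also changed in both directions, with 7 higher and 5 lower of 20 tested and a median log2 fold change of 0.08. The share called was 60%, against 35.8% of all genes and 46.3% of genes with a mean CPM in the transporters' range. Lysosomal carriers were among both the higher and the lower genes. SLC38A7, which exports glutamine and asparagine from lysosomes, rose from 27.9 ± 1.16 to 36.9 ± 1.6 CPM (0.41 ± 0.06, edgeR adjusted p = 1.99e-06). SLC66A1, the lysosomal exporter of cationic amino acids, rose by 0.34 ± 0.08 and CTNS, the cystine exporter, by 0.32 ± 0.08. The mitochondrial glutamate carrier SLC25A22 rose by 0.29 ± 0.05.

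Among the lower genes SFXN1, the mitochondrial serine carrier, fell from 164 ± 3.30 to 138 ± 2.13 CPM (-0.25 ± 0.03, edgeR adjusted p = 1.34e-06). SLC7A14, a lysosomal relative of the cationic carriers, fell by 0.44 ± 0.10. The ornithine carrier SLC25A15 fell by 0.27 ± 0.08, though not without NG replicate 3 (adjusted p = 0.0542) or SMG replicate 2 (0.0618). The aspartate-glutamate carrier SLC25A13 fell by 0.18 ± 0.04. CTNS overlaps a gene on the opposite strand and its value is uncertain.

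ATF4 and many other targets of the amino acid response fell. ATF4 went from 230 ± 9.02 to 194 ± 7.48 CPM (-0.25 ± 0.04, edgeR adjusted p = 5.08e-06). Of 23 tested targets outside the 10 transporters 13 fell and 0 rose (56.5%, against 18.5% of all genes lower), with a median log2 fold change of -0.23. ASNS, whose element is printed above, fell from 167 ± 5.14 to 145 ± 4.43 CPM (-0.21 ± 0.04, edgeR adjusted p = 5.32e-05). PSAT1, an enzyme of serine synthesis, fell from 147 ± 4.83 to 125 ± 2.72 CPM (-0.24 ± 0.04). The largest falls on this list were those of STC2 (-1.70 ± 0.05) and DDIT4 (-0.94 ± 0.05), which are also known to respond to low oxygen. Of the 5 transporters with the core in a promoter window, SLC1A5 and SLC3A2 fell, SLC1A4 rose, and SLC7A1 and SLC38A1 did not pass. SLC38A2, whose known amino acid response element lies in an intron outside the window searched, did not pass.

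**Figure D4:**
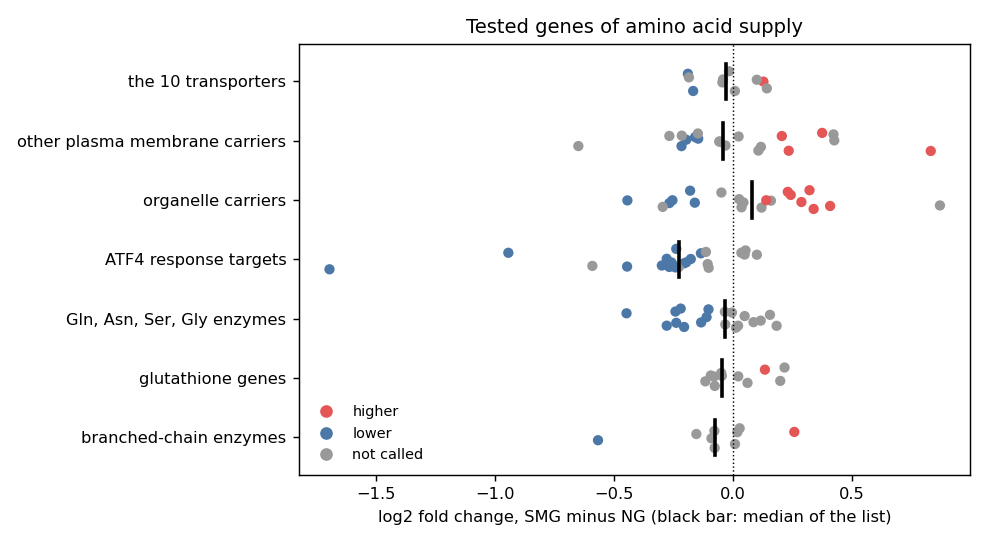
Each point is a tested gene, placed by its log2 fold change (SMG minus NG, horizontal axis) in a row for its list, red where higher, blue where lower and grey where not called, with a black bar at the list's median. The 10 transporters lie between -0.19 and 0.14, and the ATF4 response targets reach down to -1.70 with a median of -0.23.

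Several enzymes that use or make the carried amino acids fell. Those of glutamine, asparagine, serine and glycine had 9 lower and 0 higher of 19 tested (47.4%, against 18.5% of all genes lower), with a median log2 fold change of -0.03. GLUL, which makes glutamine, fell from 353 ± 15.7 to 303 ± 6.49 CPM (-0.22 ± 0.03), and SHMT2, the mitochondrial serine hydroxymethyltransferase, from 121 ± 6.65 to 102 ± 3.26 CPM (-0.24 ± 0.04). ASNS, PSAT1, SHMT2 and PHGDH, all lower, are counted on the ATF4 list as well, as is PSPH, which did not pass. Of 9 tested genes of branched-chain amino acid use, 1 rose and 1 fell (22.2%, against 35.8% of all genes). BCAT1, the cytosolic aminotransferase that acts on leucine brought in by SLC7A5, fell from 497 ± 24.9 to 336 ± 6.41 CPM (-0.57 ± 0.04, edgeR adjusted p = 3.78e-13). IVD, a mitochondrial enzyme of leucine breakdown, rose from 48.0 ± 2.74 to 57.4 ± 0.614 CPM (0.26 ± 0.05).

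Genes that sense amino acids and pass the signal to the eIF2alpha and mTORC1 pathways had 6 higher and 7 lower of 32 tested, with a median log2 fold change of -0.0086. The 40.6% called was near the 35.8% of all genes and is no result about the list. FLCN, which acts on the Rag GTPases at the lysosome, rose from 20.2 ± 1.13 to 25.9 ± 0.932 CPM (0.36 ± 0.06). MTOR rose by 0.19 ± 0.04 and SESN3 by 0.14 ± 0.03. SESN1, a relative of the leucine sensor SESN2, fell by 0.25 ± 0.05, and the leucyl-tRNA synthetase LARS1 by 0.18 ± 0.03.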

How the data were processed

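RNA was sequenced from 6 libraries, made from 1.3 μg of total RNA each, per the labels' protocols. The authors deposited 1 table of unnormalized read counts for Ensembl gene identifiers. Per the submitters' processing notes, the tools were HISAT2, SAMtools, featureCounts and DESeq2, on build hg19. Their versions, the annotation, the strand setting and the rule for multiply mapping reads were not given in the sources used here. Symbols came from a gene name table and GENCODE 29 (52338 of 57820 genes), which also gave transcript lengths and GC content.

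Genes passing edgeR's filterByExpr (17803) were scaled by TMM and tested with the quasi-likelihood test, with Benjamini-Hochberg adjustment over all of them and a threshold of 0.05. SE is the absolute log2 fold change over the square root of F. Ratios within a library added 0.5 to each count and were tested by exact permutation. Genes of at least 10 CPM had a median SE of 0.0524, at a biological coefficient of variation of 0.0346. Software was edgeR 4.0.16, DESeq2 1.42.0 and limma 3.58.1 in R 4.3.3, and the scripts were tested on simulated data. The 10 genes, the lists and the tests were chosen with earlier results of these data known. Named were all 10 transporters, up to 4 called carriers per direction and list with at least 2 CPM and the largest change, up to 3 called genes per direction of other lists with the smallest p, and 6 fixed genes (ATF4, ASNS, MNX1, ISL1, CHAT and SLC18A3); others are named for a limit or because they did not pass. Alternatives were DESeq2, limma-voom, other scalings and filters, no robust estimation, protein-coding genes alone, removal of a trend with length and GC content (natural splines, as offsets), a replicate block and each library left out. The difference of 2 genes in the trend-removed fit was added after the data were seen. Some markers and overlapping genes are not reported here.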

Additional observations from a re-analysis of the deposited data

How the results depend on the processing

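Across the 17 settings, counts of all genes called ran from 2273 to 3440 higher and from 2375 to 3256 lower, beside 3080 and 3296. Transporters called higher were 1, but 0 with DESeq2, 2 without a low-count filter and 0 to 1 with a library left out. Those called lower were 2, and 1 to 2 with a library left out. Of the other plasma membrane carriers 4 were lower, but 1 with DESeq2, 2 without the length and GC trend and 1 to 4 with a library left out. Genes that did not pass changed sign in some settings. Without the trend SLC7A1 was at -0.068, SLC7A5 at -0.062, SLC7A11 at 0.0066, SLC38A2 at 0.061 and CHAT at -0.0019. With library size scaling SLC38A2 was at 0.0031. Without NG replicate 3 SLC7A1 was at -0.0028, SLC7A11 at 0.0095, SLC38A1 at 0.00076 and SLC38A2 at 0.0016, and without SMG replicate 3 SLC7A1 was at -0.015. With each library left out in turn they ran from -0.015 to 0.028 for SLC7A1, -0.084 to 0.0095 for SLC7A11, -0.074 to 0.00076 for SLC38A1 and -0.028 to 0.0016 for SLC38A2. The log2 difference of SLC7A5 to SLC7A8 (-0.04) ran from -0.16 to 0.10 with a library left out, being 0.10 without NG replicate 2, 0.03 without SMG replicate 1 and 0.01 without SMG replicate 2. Without the trend the difference was 0.40 for SLC1A4 to SLC1A5, 0.10 for SLC7A1 to SLC7A3 and 0.18 for SLC7A5 to SLC3A2. The cause of these shifts was not tested. With the replicate number as a block, 3077 genes were higher and 3256 lower, and 1 transporter higher and 2 lower. Same-numbered libraries deviated from their group means with correlations of -0.06, 0.05 and -0.05 across genes, so the numbers were not taken as pairs. Depth limits SLC7A8, whose smallest count of 70 carries a counting error of 12%.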

Other observations

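Genes whose products act on membrane carriers after translation were also measured. NEDD4, a ubiquitin ligase that removes membrane proteins, fell from 27.6 ± 0.590 to 21.6 ± 0.497 CPM (-0.36 ± 0.06, edgeR adjusted p = 2.79e-05). Its relative NEDD4L was at 259 ± 4.68 and 274 ± 0.948 CPM (0.08 ± 0.03, edgeR adjusted p = 0.0498), and lost its call in 9 of 17 other settings, with adjusted p up to 0.168. ARRDC3, an arrestin-like adaptor of such ligases, fell from 292 ± 2.02 to 229 ± 3.75 CPM (-0.35 ± 0.03, edgeR adjusted p = 1.46e-09). LAPTM4B, a lysosomal membrane protein known to bind the SLC7A5 and SLC3A2 pair, fell by 0.12 ± 0.04, and BSG, a chaperone of other membrane carriers, by 0.13 ± 0.04. Of these, LAPTM4B did not pass without NG replicate 1 or SMG replicate 3 (adjusted p = 0.065 and 0.15). BSG did not pass without NG replicate 2 or SMG replicate 3 (0.0795 and 0.0749). With ARRDC3, both come from a list of chaperones and partners of carriers. That list had 3 lower and 0 higher of 4 tested (75%, against 18.5% of all genes lower). Over 4 genes this is no result about the list.

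Known regulators of carrier genes, a list that holds ATF4, NEDD4 and NEDD4L as well as transcription factors, had 3 higher and 4 lower of 14 tested. The share called was 50%, against 35.8% of all genes and 46.3% of genes with a mean CPM in the transporters' range. It is no result about the list. KEAP1, the inhibitor of NFE2L2, rose by 0.22 ± 0.05, or 0.11 without the length and GC trend (adjusted p = 0.0703), and TFE3 by 0.18 ± 0.06, or 0.05 (adjusted p = 0.547). TFE3 also did not pass with DESeq2 (0.0568) and without any 1 of NG replicate 1, NG replicate 2, SMG replicate 2 and SMG replicate 3 (0.0542 to 0.116). EPAS1, a hypoxia-inducible factor, was low throughout, at 1.43 ± 0.315 CPM in NG and 0.244 ± 0.174 CPM in SMG (-2.54 ± 0.38, edgeR adjusted p = 6.18e-06). HIF1A was at 196 and 200 CPM (0.03) and MYCN at 57.5 and 55.1 CPM (-0.06), and neither passed.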
